A study of Mus musculus with 4 samples.

Results

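The miR-23/24/27 miRNAs are made from a pair of paralogous gene clusters, and 5 mature forms of them were measured in mouse liver: mmu-miR-23a, mmu-miR-23b, mmu-miR-24, mmu-miR-27a and mmu-miR-27b. They were chosen by name, with passenger strands left out, and are 5 of the 611 mouse miRNAs of the array. The study asked how the liver miRNAs of Clock mutant mice differ from those of wild type (WT) mice. WT and Clock mutant mice were each killed 2 h (ZT2) or 14 h (ZT14) after the lights came on, which gave 4 conditions. The mutant animals carried Clock△19, an allele whose CLOCK protein binds its partner and DNA but activates target genes poorly, and the labels give no strain for either genotype. All mice were males, 6 to 8 weeks old, caged singly for 2 weeks in a cycle of 12 h light and 12 h dark before they were killed. Each condition was 1 pool of liver RNA from 3 mice on 1 array, so no condition has a replicate and no spread between mice can be seen. The array has no probe for the Clock mRNA, so the genotype labels were not checked against the data.

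An animal miRNA is cut from a hairpin precursor, loaded into an Argonaute protein, and guided to mRNAs mainly by its bases 2 to 8, the seed. Hairpins that lie close together are usually transcribed as 1 primary RNA, so the members of a cluster share a promoter but can still differ in cutting and decay. The miR-23/24/27 clusters are broadly expressed, are abundant in blood vessel endothelium, and have been studied in liver for lipid metabolism, mainly miR-27b, and for fibrosis.

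Sequences show which members can be told apart by target site and which cannot. RefSeq held a mature sequence for 4 of the 5 members (build GRCm38.p6), printed 5′ to 3′ with the seed in capitals; mmu-miR-23b is named only.
mmu-miR-23a: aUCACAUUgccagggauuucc
mmu-miR-27a: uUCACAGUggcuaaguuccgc
mmu-miR-27b: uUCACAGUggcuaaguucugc
mmu-miR-24: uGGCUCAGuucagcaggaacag
The 4 sequences had 3 different seeds. mmu-miR-27a and mmu-miR-27b shared 1 seed and were the same at 20 of 21 bases, the single difference being C19U, counted from the 5′ end with the base of mmu-miR-27a first. The seeds of mmu-miR-23a and mmu-miR-27a differed by U7G alone, with the base of mmu-miR-23a first. mmu-miR-24 had a seed of its own among the members. In RefSeq, 4 other mouse miRNAs (miR-5124b, miR-6369, miR-6410 and miR-6413) had the seed of mmu-miR-24, and 0 of them were on the array.

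The first cluster lies on chromosome 8 at chr8:84208518-84208921 on the plus strand and holds Mir23a, Mir27a and Mir24-2 in that order within 404 bases. No protein-coding gene of the annotation overlaps it, and the span of the nearest one at higher coordinates, Zswim4, lies 2021 bases away. The other cluster lies on chromosome 13 at chr13:63300484-63301275, also on the plus strand, and holds Mir23b, Mir27b and Mir24-1 within 792 bases. It lies within the span of the aminopeptidase gene Aopep, and the span of the DNA repair gene Fancc lies 59 bases away at higher coordinates. The strand of these genes was not used, so neither distance is one to a promoter. The table used here does not say whether the hairpins fall in an exon or an intron of Aopep. The mature mmu-miR-24 has 2 loci, 1 in each cluster, and a single sequence, so its signal is the sum of both clusters. The members mmu-miR-23a and mmu-miR-27a therefore stand for the chromosome 8 cluster, and mmu-miR-23b and mmu-miR-27b for the chromosome 13 cluster. Each paralogue had its own probes, but whether a probe also binds RNA of the other paralogue was not tested, which matters most for mmu-miR-27a and mmu-miR-27b.

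All 5 members were detected on all 4 arrays. Each was read by 2 probes of 10 spots, all 100 member spots of every array were well above background, and 0 were saturated. The scanner marked 6 of the 100 as outliers on the WT array at ZT2, 0 on the mutant array at ZT2, 1 on the WT array at ZT14 and 3 on the mutant array at ZT14, and these were left out. Detected mouse miRNAs numbered 193, 161, 138 and 142 on the same arrays. The intensity of a miRNA was averaged over its spots and probes, and each array was scaled by the 75th percentile of the 123 mouse miRNAs that every array detected. For ZT2 that percentile was 537 units in WT and 503 units in the mutant. At ZT14 it was 339.9 units in WT, the lowest of the 4, and 536 in the mutant. The spike-in controls did not follow: their mean log2 intensity at ZT14 was 12.64 in WT against 12.48 in the mutant, and at ZT2 it was 12.57 against 12.52. Levels below are multiples of the 75th percentile (scaled levels). They are compared between arrays only, never between miRNAs, since probes differ in brightness. The error given is the SD of repeated spots within a probe on the log2 scale (spot SD), a technical error that takes in nothing of the spread between mice. For a ratio or a difference, the spot SDs of the arrays and miRNAs compared were combined as the root of the sum of their squares. It is the spread of single spots and not the error of their mean. The number of arrays limits the precision. In liver RNA, fewer cells of a type and less RNA per cell cannot be told apart.

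In the chromosome 8 cluster, mmu-miR-23a had scaled levels of 0.980 in WT at ZT2, 0.951 in the mutant at ZT2, 0.942 in WT at ZT14 and 0.968 in the mutant at ZT14. The 4 arrays lay within 4.01% of each other, and no neighbours in their order differed by more than the spot SD. These levels lie close to the scaling percentile itself, and the scaling by construction holds a miRNA at that point nearly level. mmu-miR-27a had scaled levels of 0.475 in WT at ZT2, 0.424 in the mutant at ZT2, 0.466 in WT at ZT14 and 0.483 in the mutant at ZT14. The mutant array at ZT2 was the low one, 0.14 below the next on the log2 scale (spot SD 0.059), while the other 3 did not differ beyond the spot SD. mmu-miR-27a carries the seed that mmu-miR-27b also has, so the same target sites are open to both.

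In the chromosome 13 cluster, mmu-miR-23b had scaled levels of 1.18 in WT at ZT2, 1.34 in the mutant at ZT2, 1.23 in WT at ZT14 and 1.26 in the mutant at ZT14. Here the mutant array at ZT2 was the high one, 0.080 above the next (spot SD 0.053). mmu-miR-27b had scaled levels of 0.635 in WT at ZT2, 0.707 in the mutant at ZT2, 0.684 in WT at ZT14 and 0.667 in the mutant at ZT14. The mutant array at ZT2 was again highest and the WT array at ZT2 lowest, but no neighbours in the order differed by more than the spot SD. mmu-miR-24, the product of both clusters, had scaled levels of 1.21 in WT at ZT2, 1.33 in the mutant at ZT2, 1.25 in WT at ZT14 and 1.26 in the mutant at ZT14. Its order was that of mmu-miR-23b, with the mutant array at ZT2 0.077 above the next (spot SD 0.036).

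**Figure D1:**
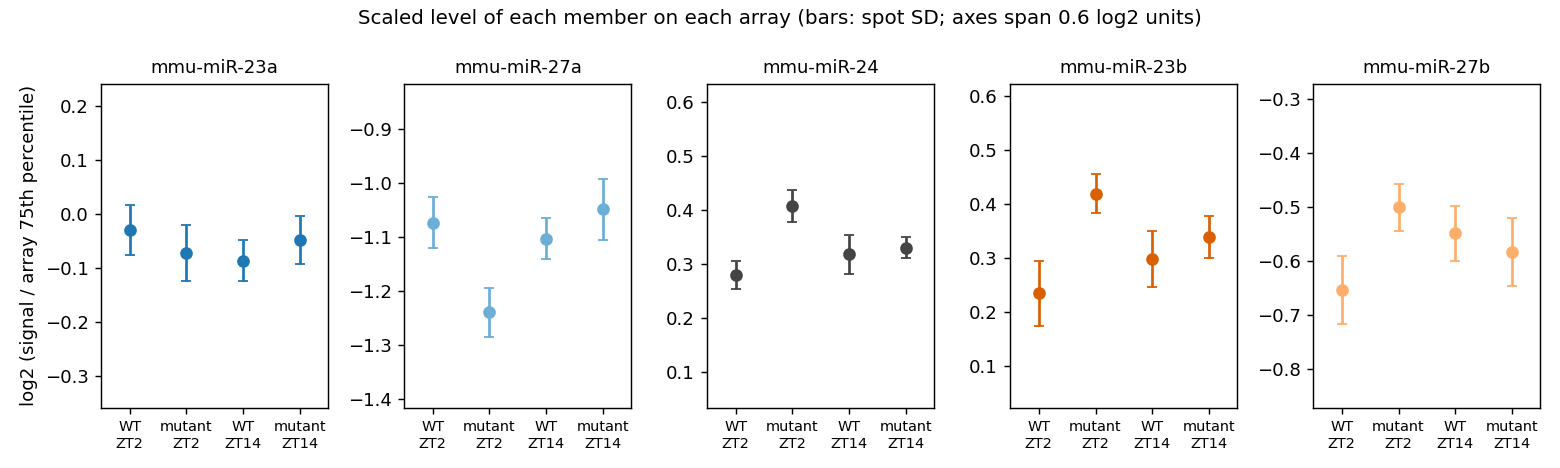
Scaled level (log2 of the signal over the 75th percentile of the array) of each member on the 4 arrays, with the spot SD as bars and every vertical axis spanning the same distance. The mutant array at ZT2 is the lowest for mmu-miR-27a and the highest for mmu-miR-23b, mmu-miR-27b and mmu-miR-24, and the 4 points of mmu-miR-23a overlap.

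The spread of the members over the arrays was small beside that of other miRNAs with this scaling. From lowest to highest array the members spanned 0.057 for mmu-miR-23a to 0.19 for mmu-miR-27a on the log2 scale, with a median of 0.15, against a median of 0.35 over the 123 miRNAs. Ordered from the smallest span, they held places 2, 3, 7, 10 and 11 of 123. The members had 158 to 677 units, where the array medians of the 123 were 80.4 to 148 units. The places were not matched for brightness. The small span of mmu-miR-23a is partly built in, since its level lay close to the scaling percentile on every array. The places depended on the scaling: they were 33 to 68 with the median in place of the 75th percentile, and 74 to 89 with the 75th percentile of all mouse miRNAs, where the members spanned a median of 0.86 against 0.71 for all.

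At ZT2 the clusters stood on opposite sides of WT. The log2 ratio of mutant to WT was 0.18 for mmu-miR-23b (spot SD 0.070) and 0.15 for mmu-miR-27b (spot SD 0.077), and it was 0.13 for mmu-miR-24 (spot SD 0.040). It was -0.17 for mmu-miR-27a (spot SD 0.065) and -0.043 for mmu-miR-23a (spot SD 0.069). As folds, mmu-miR-23b was at 1.14 times and mmu-miR-27a at 0.891 times its WT level. All except mmu-miR-23a differed from 0 by more than the spot SD, and both probes of each of the 5 members gave the same direction. Among the 160 miRNAs detected on both arrays, from the highest ratio down, mmu-miR-23b stood at place 26, mmu-miR-27b at 30, mmu-miR-24 at 36, mmu-miR-23a at 75 and mmu-miR-27a at 102. The median was 0.13 over the members and -0.065 over the 160. No member was 2-fold higher or lower, the fold that the study used. Of the 160 miRNAs, 0% were higher by 2-fold or more and 2.5% were lower by as much. The direction of single members rested on the scaling: with the 75th percentile of all mouse miRNAs and in the deposited log2 values all 5 were above 0, and with the scanner's total signal all 5 were below 0.

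At ZT14 the members of both clusters lay close to WT. The log2 ratio of mutant to WT was 0.039 for mmu-miR-23a (spot SD 0.059), 0.054 for mmu-miR-27a (spot SD 0.068) and 0.012 for mmu-miR-24 (spot SD 0.041). For the chromosome 13 cluster it was 0.041 for mmu-miR-23b (spot SD 0.065) and -0.035 for mmu-miR-27b (spot SD 0.081). None of the 5 exceeded its spot SD, and they took places 44 to 64 of the 123 miRNAs detected on both arrays. The median was 0.039 over the members and -0.031 over the 123. Again 0 of 5 passed 2-fold, beside 0% of the 123 miRNAs that were higher by 2-fold or more and 6.5% that were lower. Before scaling the 5 were 0.62 to 0.71 higher in the mutant, and the median of all 123 was 0.63 higher. With spike-in scaling the 5 were 0.78 to 0.87 higher and the median of all 123 was 0.78 higher. Which scaling is nearer to the amounts of RNA was not tested. The 5 were also above 0 with the 75th percentile of all mouse miRNAs, with the brightest probe alone and in the deposited log2 values, and below 0 with the scanner's total signal.

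From ZT2 to ZT14 in WT the ratios of the members were small with this scaling, and without scaling all 5 were lower at ZT14, with log2 ratios from -0.72 to -0.55, as was the median of all miRNAs at -0.78. The log2 ratio of ZT14 to ZT2 was -0.057 for mmu-miR-23a (spot SD 0.060) and -0.030 for mmu-miR-27a (spot SD 0.060). It was 0.063 for mmu-miR-23b (spot SD 0.080), 0.11 for mmu-miR-27b (spot SD 0.081) and 0.038 for mmu-miR-24 (spot SD 0.045). Only mmu-miR-27b was past its spot SD. The members' median was 0.038, against -0.12 over the 137 miRNAs detected on both arrays, and it was above 0 with 6 of the 10 alternatives run. Of the 137 miRNAs 0.73% were higher at ZT14 by 2-fold or more and 2.92% lower.

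In the mutant, mmu-miR-27a had the largest of the 20 member ratios, with a log2 ratio of ZT14 to ZT2 of 0.19 (spot SD 0.073), or 1.14-fold. It stood at place 9 of 140 miRNAs, and its probes gave 0.14 and 0.32. mmu-miR-23a, of the same cluster, was at 0.025 (spot SD 0.068). The other cluster was lower at ZT14, with -0.080 for mmu-miR-23b (spot SD 0.053) and -0.082 for mmu-miR-27b (spot SD 0.077), as was mmu-miR-24 at -0.077 (spot SD 0.036). For both mmu-miR-23b and mmu-miR-27b the brighter probe was below 0 (-0.11 and -0.11) and the dimmer above 0 (0.0093 and 0.031). The members' median of -0.077 was above the median of -0.16 over the 140 miRNAs, and it was above 0 with 6 of the 10 alternatives run. No member was 2-fold higher or lower in either genotype, and of the 140 miRNAs 0% were higher by 2-fold or more and 6.43% lower. The comparisons of genotype and of time use the same 4 arrays, so the low mutant ZT2 level of mmu-miR-27a enters both.

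**Figure D2:**
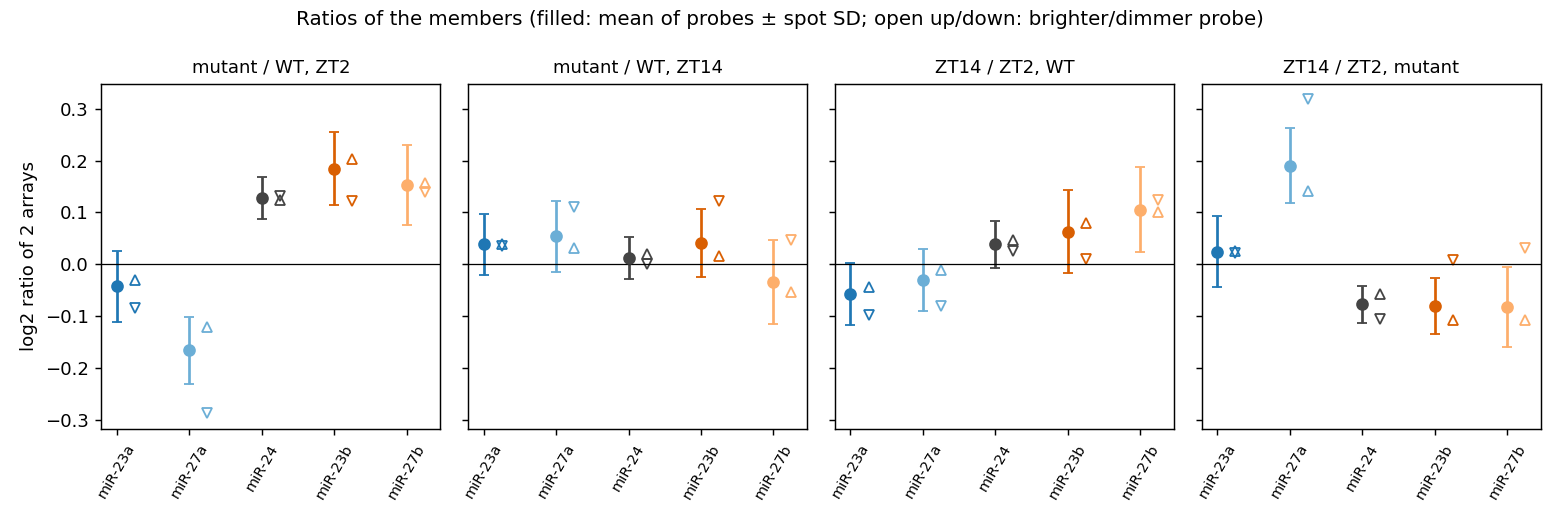
Log2 ratio of 2 arrays for each member in the 4 comparisons, as the mean over probes with the spot SD (filled) and for the brighter and the dimmer probe alone (open). At ZT2 the members of the chromosome 13 cluster and mmu-miR-24 lie above 0 and those of the chromosome 8 cluster below, at ZT14 all 5 lie within their spot SD of 0.

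**Figure D3:**
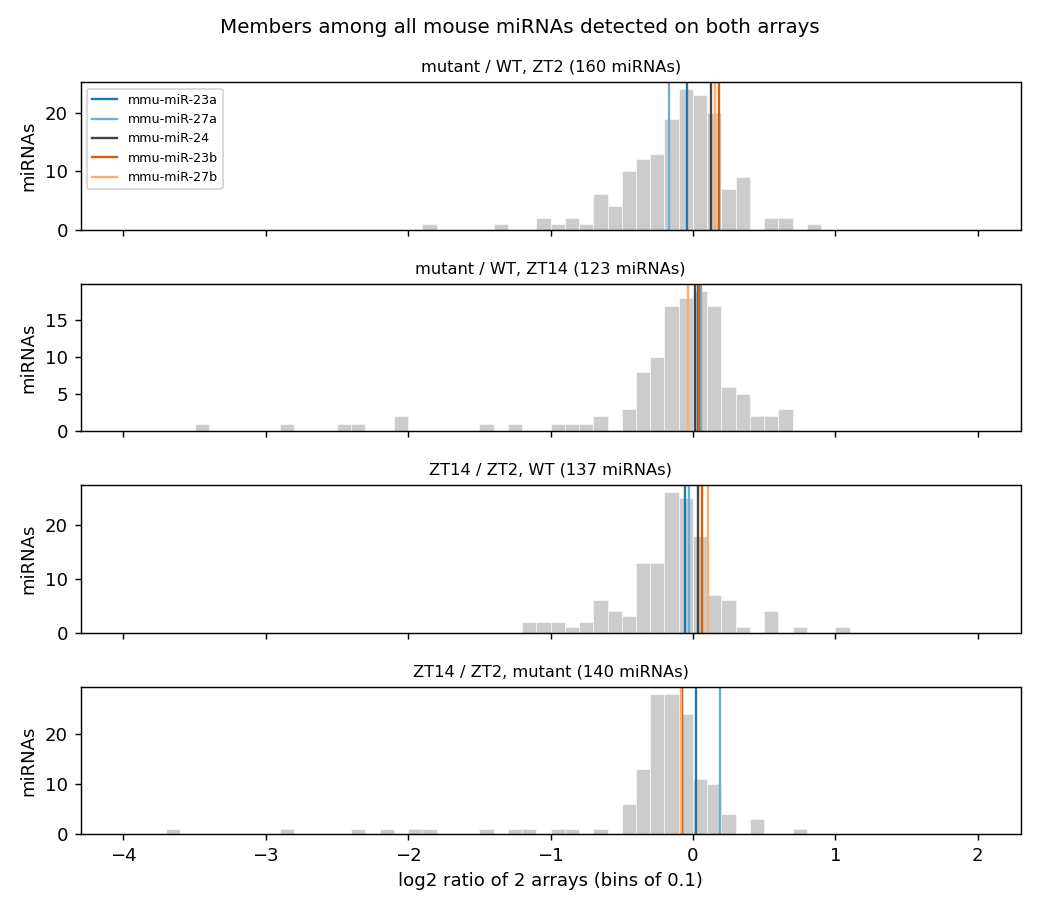
Number of mouse miRNAs by log2 ratio in each comparison, for the miRNAs detected on both arrays, with the members as vertical lines. The long tails of lower miRNAs hold no member, and mmu-miR-27a, at place 9 of 140 from ZT2 to ZT14 in the mutant, lies nearest to an upper end.

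Genotype and time were tested with limma on the 4 arrays together, by an additive fit to the 123 miRNAs with 1 residual degree of freedom. No member passed an adjusted p of 0.05 for either term, beside 0% of the 123 miRNAs for genotype and 0% for time. Without adjustment, limma gave a p under 0.05 for 10 miRNAs by genotype and 12 by time, none of them a member. The same count for the members was 3 by genotype and 2 by time with the 75th percentile of all mouse miRNAs, where 53 of the 123 miRNAs passed by genotype and 15 by time. The mutant minus WT difference was 0.11 for mmu-miR-23b (SE 0.13, limma adjusted p = 0.77), which was the lowest adjusted p of the members. It was 0.070 for mmu-miR-24 (limma adjusted p = 0.82), 0.059 for mmu-miR-27b (0.87), -0.0020 for mmu-miR-23a (0.99) and -0.056 for mmu-miR-27a (0.87). The 95% interval ran from -0.25 to 0.47 for mmu-miR-23b and from -0.43 to 0.32 for mmu-miR-27a. For ZT14 minus ZT2 the members ran from -0.019 for mmu-miR-24 (limma adjusted p = 0.96) to 0.080 for mmu-miR-27a (limma adjusted p = 0.78). In the deposited log2 values, fitted as they stand, limma called all 5 members higher in the mutant (lowest adjusted p = 0.033), together with 79 of the 123 miRNAs. In those values the median of all miRNAs was itself 0.74 higher at ZT2 and 0.64 higher at ZT14. Their lowest value also differed between the ZT2 arrays, at -7.51 in WT and -6.59 in the mutant.

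A change of the genotype difference with time could not be tested, since it leaves no residual degree of freedom. The mutant to WT log2 ratio at ZT14 minus that at ZT2 was 0.22 for mmu-miR-27a (spot SD 0.094) and 0.081 for mmu-miR-23a (spot SD 0.090). It was -0.19 for mmu-miR-27b (spot SD 0.11), -0.14 for mmu-miR-23b (spot SD 0.096) and -0.12 for mmu-miR-24 (spot SD 0.057). With this scaling the clusters had opposite signs, and mmu-miR-24 had that of the chromosome 13 cluster, but all 5 values were above 0 without scaling, with spike-in scaling, with the 75th percentile of all mouse miRNAs and with the brightest probe. Over the 123 miRNAs the median was -0.057 and the SD across miRNAs 0.62, wider than any member's value.

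Paralogues on the same array share its brightness, so the difference between their ratios does not depend on a scaling by 1 number per array. At ZT2 the mutant to WT log2 ratio of mmu-miR-23a was 0.23 below that of mmu-miR-23b (difference -0.23, spot SD 0.098). That of mmu-miR-27a was 0.32 below that of mmu-miR-27b (difference -0.32, spot SD 0.10). Over the 160 miRNAs detected on both arrays, the SD of this ratio across miRNAs was 0.36, wider than either difference. All 4 pairings of 1 probe of each paralogue gave the same sign, from -0.29 to -0.15 for the miR-23 pair and from -0.44 to -0.26 for the miR-27 pair. As a measure of how far probes disagree, 55 miRNAs with 2 probes above 50 units were used, the 5 members among them. The 2 probes of a single miRNA differed by a median of 0.046 in this ratio, with a 90th percentile of 0.12. Those of mmu-miR-27a were farther apart than this 90th percentile, at -0.29 and -0.12. The 90th percentile was 0.10 for mutant to WT at ZT14, and 0.090 in WT and 0.14 in the mutant for ZT14 to ZT2. In the last comparison the miR-23 difference given below was under it. There the probes of mmu-miR-27a (0.32 and 0.14) and of mmu-miR-27b (0.031 and -0.11) were farther apart than it. At ZT14 the differences were -0.0020 for the miR-23 pair (spot SD 0.088) and 0.089 for the miR-27 pair (spot SD 0.11), both within the spot SD. From ZT2 to ZT14 they were -0.12 (spot SD 0.10) and -0.14 (spot SD 0.10) in WT, and 0.10 (spot SD 0.086) and 0.27 (spot SD 0.11) in the mutant. These comparisons share arrays. Seen array by array, the level of mmu-miR-23a over mmu-miR-23b, centred on its mean, was 0.12 in WT at ZT2, -0.11 in the mutant at ZT2, -0.0028 in WT at ZT14 and -0.0047 in the mutant at ZT14. For mmu-miR-27a over mmu-miR-27b it was 0.13, -0.19, -0.010 and 0.079 on the same arrays. The ZT2 arrays lay on either side of 0 for both pairs, and the ZT14 arrays lay between them.

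**Figure D4:**
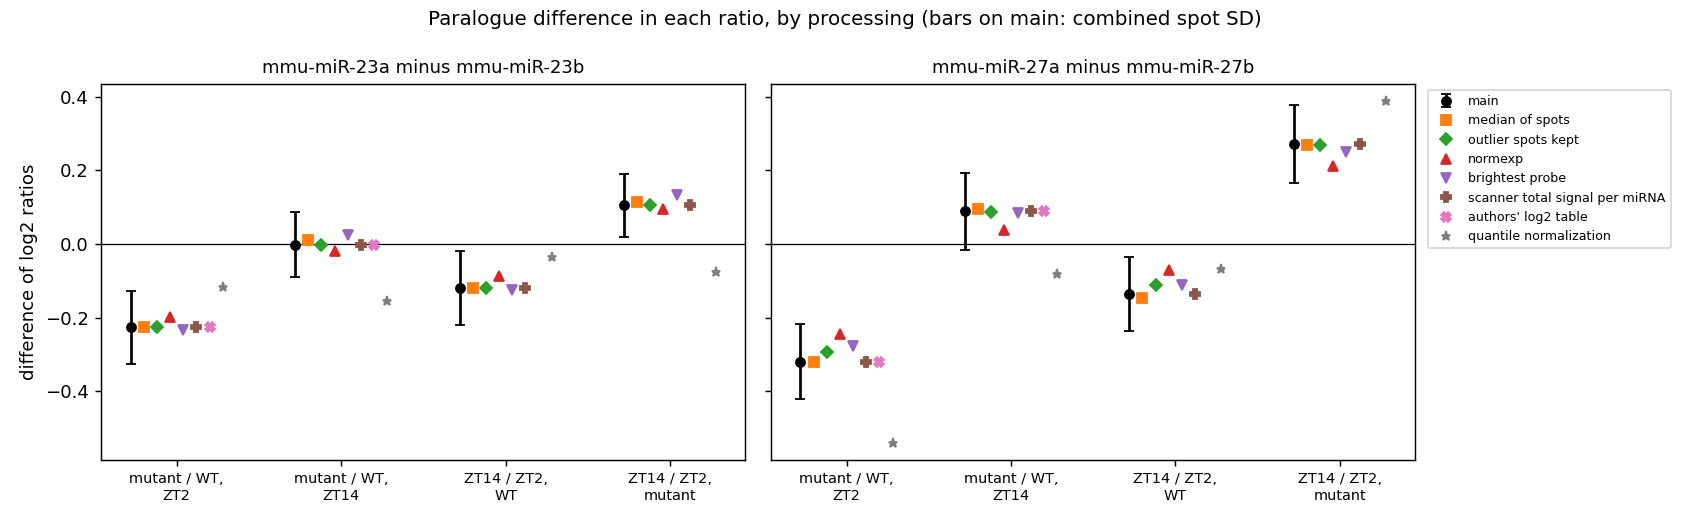
Difference of log2 ratios between paralogues in the 4 comparisons, under the main processing (black, combined spot SD as bars) and 7 alternatives. At ZT2 the difference between mutant and WT is below 0 for both pairs in all 8, quantile normalization lies farthest from the rest, and the scanner's total signal and the deposited table repeat the main values by construction.

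The passenger strands could tell the loci of mmu-miR-24 apart, since they differ where the mature strand does not. Their first 16 bases are the same, and the capitals mark the rest.
mmu-miR-24-1-5p (chromosome 13): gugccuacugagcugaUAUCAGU
mmu-miR-24-2-5p (chromosome 8): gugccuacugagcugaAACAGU
On the array, 4 passenger strands of the 6 precursors had probes (miR-24-1*, miR-24-2*, miR-27a* and miR-27b*), and 0 were detected on any array. The highest mean signal was 7.36 units, for miR-24-1*, where negative control spots averaged 5.65 to 9.53 units. Of 80 spots each, miR-24-1* and miR-27b* had 1 well above background and the others 0, and both of these spots were outliers. The share of mmu-miR-24 from each cluster could therefore not be read.

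The liver label was checked with miRNAs of other cell types. All 4 hepatocyte miRNAs of the list were detected on all arrays, among them miR-122 at 29413 to 55936 units, and both endothelial miRNAs were. For other cell types, those detected on all arrays were 3 of 5 for stellate cells and fibroblasts, 3 of 6 for leukocytes, 2 of 3 for red blood cells, 2 of 5 for bile duct epithelium and 0 of 3 for muscle. Undetected on every array were miR-145, miR-150, miR-155 and miR-200c. The muscle miRNAs miR-1, miR-133a and miR-133b were detected on the WT array at ZT2 alone. There miR-1 had 106 units, against 4.46 in the mutant at ZT2, 0.592 in WT at ZT14 and 2.44 in the mutant at ZT14. miR-133a had 21.6 units there and at most 0.896 elsewhere, and miR-133b had 37.6 there and at most 0.586 elsewhere. The ratios of mutant to WT at ZT2 and of ZT14 to ZT2 in WT use that array.

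Several of these lists also differed between the ZT2 arrays, where the paralogues parted. A sum over a list follows its brightest miRNA. In WT at ZT2, miR-451 had 1724 units beside 60.1 for miR-144, and miR-122 had 52215 beside 4096 for miR-192. The summed scaled level of the red blood cell miRNAs was 3.32 in WT and 5.91 in the mutant for ZT2, then 2.94 and 2.55 for ZT14. That of the leukocyte miRNAs was 1.33 in WT and 0.883 in the mutant for ZT2, then 0.736 and 0.775 at ZT14. The bile duct miRNAs were at 0.174 and 0.0976 at ZT2, and at 0.0811 and 0.123 at ZT14, from dim signals of 13.1 to 49.9 units per miRNA. The stellate cell and fibroblast miRNAs were at 0.632 and 0.575 at ZT2, and at 0.506 and 0.616 at ZT14. The endothelial miRNAs, miR-126-3p and miR-126-5p, summed to 3.91 and 4.25 at ZT2 and to 3.72 and 3.61 at ZT14, and the hepatocyte miRNAs to 111 and 125 at ZT2 and to 99.0 and 111 at ZT14. At ZT2 the miRNAs of the stellate cell list and of the hepatocyte list did not all go one way. Those of the red blood cell, leukocyte, bile duct and endothelial lists that were detected on all arrays did. The log2 ratio of mutant to WT ran from -0.59 for miR-143 to 0.085 for miR-199a-5p in the stellate cell list, and from -0.14 for miR-148a to 0.19 for miR-122 in the hepatocyte list. It ran from 0.37 to 0.84 for the red blood cell miRNAs and from -0.66 to -0.43 for the leukocyte miRNAs. For the bile duct miRNAs it ran from -0.92 to -0.73, and for the endothelial miRNAs from 0.020 to 0.13. The value of 0.020, for miR-126-5p, lay within its spot SD of 0.19. The bile duct values had wide spot SDs, 0.37 for miR-200b and 0.48 for miR-200a. The part of these cell types in the paralogue difference was not tested.

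The miRNAs whose centred profile over the 4 arrays was nearest to the mean of the members, by root mean square difference, were miR-148b (0.013), let-7d (0.053), miR-30a* (0.059), let-7a (0.061) and miR-30c (0.062). The median over the 118 other miRNAs was 0.15. The members themselves lay from 0.031 (mmu-miR-24) to 0.085 (mmu-miR-27a) from that mean, so mmu-miR-27a was farther from it than the miRNAs just named. Correlations between members over the 4 arrays ran from -0.87 (mmu-miR-24 and mmu-miR-27a) to 0.98 (mmu-miR-23b and mmu-miR-24). The mean is therefore a nearly flat profile that does not stand for every member. Taken singly, mmu-miR-23b, mmu-miR-27b and mmu-miR-24 had each other as neighbours. The nearest of 122 miRNAs to mmu-miR-23b was mmu-miR-24 (0.023), the nearest to mmu-miR-24 was mmu-miR-23b, and the nearest to mmu-miR-27b was mmu-miR-24 (0.024). The nearest to mmu-miR-27a was mmu-miR-23a (0.065), whose own nearest was miR-30a* (0.039). So 4 of the 5 members had another member as the nearest profile. With 4 arrays, and members that hardly varied, such distances describe these arrays and carry no test.

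**Figure D5:**
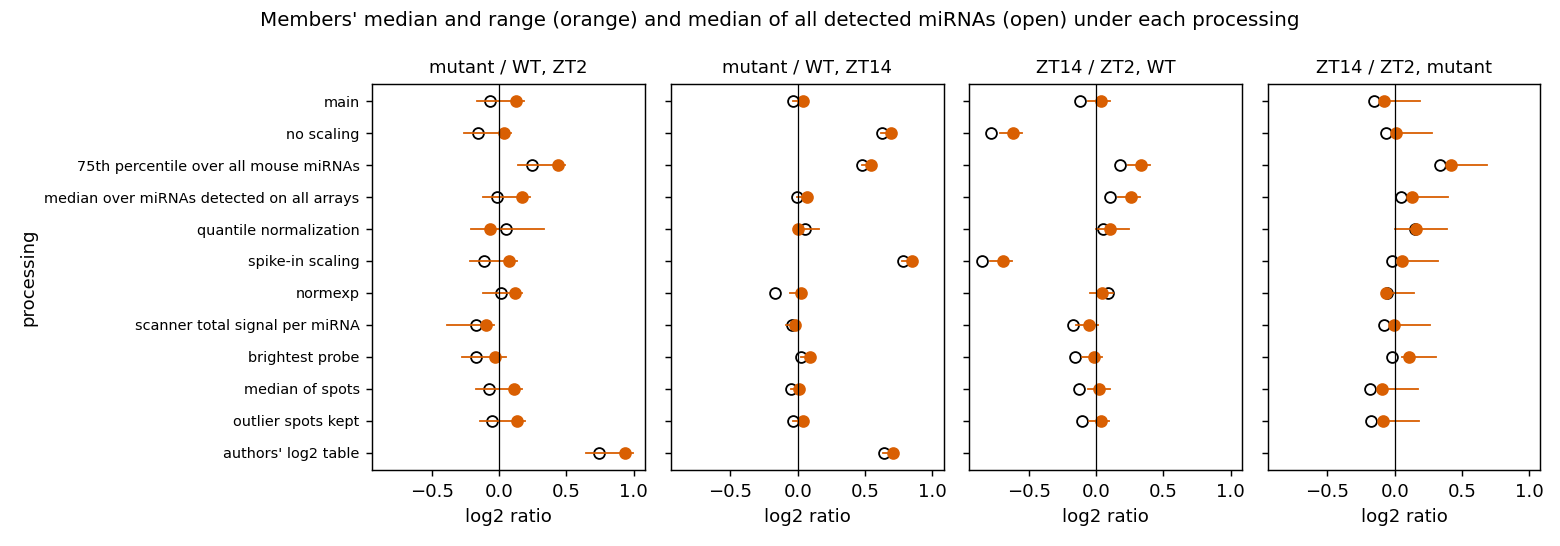
Median (orange point) and range (orange line) of the 5 members, and median of all mouse miRNAs detected on both arrays (open circle), as log2 ratios in the 4 comparisons under each processing. The members' median shifts with the median of all miRNAs under each scaling by 1 number per array, and lies between -0.69 and 0.94 over the comparisons and alternatives.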

How the data were processed

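Liver RNA of WT and Clock mutant males, 1 pool of 3 mice for each genotype and time point, was hybridized by the authors to 4 one-colour Agilent miRNA arrays, all on 1 slide with 1 scan time. The authors deposited the scanner output of Agilent Feature Extraction 10.7.1.1, with a background-subtracted intensity per spot, outlier flags and a detection call per miRNA. A second deposited table holds 1 log2 value per miRNA and array. Its normalization is not given in the sources used here. Its lowest value was 0 on both ZT14 arrays, -7.51 in WT at ZT2 and -6.59 in the mutant at ZT2. It was therefore used only within a time point or for genotype, although the lowest values differed between the ZT2 arrays as well.

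Without the spots flagged as outliers, processed intensity was averaged within each probe and then over the 2 probes of a member. Each array was scaled by the 75th percentile of the 123 mouse miRNAs that every array detected, and log2 was taken. Ratios of 2 arrays have no test. Genotype and time were fitted together with limma 3.58.1 in R 4.3.3, and p-values were adjusted by Benjamini-Hochberg over these 123. The script was first tested on simulated data. Other steps used Python 3.11.15, numpy 2.4.6, pandas 2.3.3 and matplotlib 3.10.9. Alternatives were other scalings, normexp background correction with an offset of 50, other summaries of spots and probes, the deposited table, fold thresholds of 1.5 and 3, and, in limma, miRNAs detected on any array, 1 term alone and each array left out. Sequences and gene places are from RefSeq (GRCm38.p6).

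The members, the marker lists and the tests were chosen with earlier results of these data known. The miRNAs named are the members, the passenger strands of their precursors, miRNAs with the seed of a member, the 5 nearest profiles and that nearest to each member, and cell type markers.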

Additional observations from a re-analysis of the deposited data

Results flagged for a closer look

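Some ratios of the members had opposite signs at the 2 time points or in the 2 genotypes. With 1 array per condition these differences were not tested, and many of the values lie within the spot SD. They hold for the scaling by the 75th percentile of detected miRNAs. The log2 ratio of mutant to WT changed sign from ZT2 to ZT14 for 3 members: mmu-miR-27a went from -0.17 to 0.054, mmu-miR-23a from -0.043 to 0.039 and mmu-miR-27b from 0.15 to -0.035. No member changed sign with the 75th percentile of all mouse miRNAs, with the scanner's total signal, with quantile normalization or in the deposited table. With quantile normalization, however, the ZT14 ratio was 0, which has no sign, for mmu-miR-23a, mmu-miR-24 and mmu-miR-27a.

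The log2 ratio of ZT14 to ZT2 had opposite signs in WT and in the mutant for all 5 members. In the chromosome 8 cluster it was below 0 in WT and above 0 in the mutant, at -0.057 and 0.025 for mmu-miR-23a and at -0.030 and 0.19 for mmu-miR-27a. In the chromosome 13 cluster it was above 0 in WT and below 0 in the mutant, at 0.063 and -0.080 for mmu-miR-23b and at 0.11 and -0.082 for mmu-miR-27b. mmu-miR-24, which comes from both clusters, was at 0.038 in WT and -0.077 in the mutant. With the 75th percentile of all mouse miRNAs, the median of detected miRNAs or quantile normalization, no member had opposite signs. Under quantile normalization the ratio was 0 for mmu-miR-23a in WT and for mmu-miR-27b in the mutant. Without scaling and with spike-in scaling the chromosome 13 members went the other way, from -0.60 to -0.55 in WT and 0.0070 to 0.0091 in the mutant without scaling, and from -0.67 to -0.62 and 0.053 to 0.055 with spike-ins.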

How the results depend on the processing

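The number that scales an array set the direction of the members' ratios, and the difference between paralogues did not depend on it. The median of the members for mutant to WT at ZT2 (0.13) became 0.035 without scaling, 0.44 with the 75th percentile of all mouse miRNAs, 0.94 in the deposited log2 values, -0.069 with quantile normalization, -0.097 with the scanner's total signal and -0.029 with the brightest probe. At ZT14 (0.039) it became 0.69 without scaling, 0.55 with the 75th percentile over all miRNAs, 0.85 with spike-in scaling and 0.71 in the deposited values. For ZT14 to ZT2 in WT (0.038) it became -0.62 without scaling, 0.33 with the 75th percentile over all miRNAs, 0.26 with the median of detected miRNAs, 0.10 with quantile normalization, -0.69 with spike-in scaling and -0.055 with the total signal. In the mutant (-0.077) it became 0.013, 0.42, 0.13, 0.16, 0.058 and -0.0012 in the same order, and 0.11 with the brightest probe. Where 1 number per array was changed, the median of all miRNAs moved by the same amount. Of the 9 member ratios larger than their spot SD, normexp, the median of spots and keeping outlier spots changed the sign of 0. Each of the other scalings and summaries changed the sign of 3 or 4, and the deposited table that of 1 of 4. No member passed 2-fold in any alternative.

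The paralogue differences moved by less than their spot SD with the brightest probe and normexp, and with the median of spots and outlier spots kept, which were chosen after seeing the data. The total signal and the deposited table hold the same spot values scaled per array, so they repeat the differences and are no check. Quantile normalization, also chosen afterwards for this difference, moved 6 of the 8. For mutant to WT at ZT2 it gave -0.12 for the miR-23 pair and -0.54 for the miR-27 pair, at ZT14 -0.16 and -0.083, and for ZT14 to ZT2 in the mutant -0.076 and 0.39. The cause was not tested.

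For limma, the count of miRNAs called by genotype (0) became 79 with the deposited values, 5 of them members, and 6 with normexp. By time (0) it became 5 without scaling, 3 with normexp and 3 with spike-in scaling. With 1 array left out and 1 term alone, counts ran from 0 to 7 for genotype, with 7 without the mutant array at ZT2, and from 0 to 13 for time, with 13 without the WT array at ZT14 and 1 without the mutant array at ZT14. No member was called in these except with the deposited values. Of 252 alternative values for the summed cell type lists, 106 moved by more than the spot SD and 37 changed sign. Among them, bile duct miRNAs for ZT14 to ZT2 in WT went from -1.10 to 0.067 with normexp, leukocyte miRNAs for mutant to WT at ZT2 from -0.59 to 0.22 in the deposited table, and red blood cell miRNAs at ZT14 from -0.21 to 0.45 without scaling. Ratios over time were not run on the deposited table. Arrays could not be paired by animal or replicate, because there is 1 array per condition, without replicate numbers. The additive limma fit compared the genotypes within each time point, and the time points within each genotype.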
